A study of Mus musculus with 20 samples.

Results

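Complement and acute-phase genes on an inflammation panel were followed in mouse ileal mucosa: C2, C3ar1, Cr2, Clu, Orm1, Ptx3, Hc and C8a. They were chosen by name, as every assay of the panel whose gene symbol was 1 of these 8, which gave 8 of 584 genes and 10 of 648 assays. Transcripts were measured by real-time PCR with TaqMan OpenArray plates in 20 samples, 5 in each of 4 groups. The CEC group was given oral CEC and intrarectal DNBS (dinitrobenzene sulfonic acid, used to induce colitis in rodents). CEC is an agent that the labels do not describe further. The Nissle group received intrarectal DNBS and oral Nissle, a name borne by a probiotic Escherichia coli strain. The DNBS group received intrarectal DNBS and oral PBS (phosphate-buffered saline). The healthy controls received PBS by both routes. Strain, sex and age of the mice are not given in the sources used here, and the study's description speaks of RNA pooled from mice, so a sample may not be 1 mouse, and the p-values reflect the spread among the samples as given, part of which may be technical. For Nissle 3, 4 and 5 a group label names the healthy controls, whereas their titles, descriptions and treatments place them in the Nissle group, and the fitted differences of the members that involve the Nissle group are also given without these 3 samples. Values of genes outside the members, and the second Ptx3 assay, are given with them. Fits without them keep only Nissle 1 and Nissle 2 in that group. The healthy samples carry the numbers 1b, 3, 4, 5 and 6 and the CEC samples 1, 3, 5, 7 and 8, as the labels give them.

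Complement is a cascade of plasma proteins that marks and lyses microbes. Its classical and lectin pathways build a convertase from the protease C2 and C4, the convertase cleaves C3, and later steps cleave C5 and assemble C6 to C9 into a membrane pore. Cell receptors read the cleavage products: C3ar1 binds C3a on myeloid cells, and Cr2 binds C3d on B cells and follicular dendritic cells. Acute-phase proteins are plasma proteins whose level shifts in inflammation. The liver makes most of them under the control of interleukin 6 and interleukin 1, whereas Ptx3, the long pentraxin, is made locally by myeloid, endothelial and stromal cells. In the gut, epithelial and stromal cells also transcribe several complement genes.

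The measured quantity was the cycle threshold (Ct), the PCR cycle at which fluorescence passed a set limit, so that a lower Ct means more template, and a Ct of 40 marked an assay without amplification. Levels are given below as relative levels: the Ct of the assay was subtracted from the sample's mean Ct over the 544 assays that amplified in all 20 samples. This is a log2 scale if each cycle doubles the product, with 0 at the sample mean, and levels of different assays were not set against each other because assays differ in efficiency. Each sample had 570 to 594 assays with a value, and the mean Ct lay between 23.06 and 24.28 cycles in CEC, 22.6 and 24.05 in Nissle, 22.8 and 24.1 in DNBS and 22.96 and 23.92 in healthy samples. Epithelial markers were present in all samples: the mean relative level of 3 assays for Apoa1 and Krt8 lay between 7.76 and 8.56 in CEC, 6.56 and 8.40 in Nissle, 6.47 and 7.74 in DNBS and 5.78 and 8.41 in healthy samples, while Apoa4, an apolipoprotein of enterocytes, gave no value in any. In tissue RNA, fewer cells of a type and less RNA per cell cannot be told apart.

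Promoters are shown for the members whose group means lay farthest apart among those with an entry in RefSeq's promoter table (GRCm38.p6), which held 5 of the 8 members. The windows run from 250 bases before to 50 after the annotated start. They were searched on both strands for the NF-kB motif (GGG, any 5 bases, then CC), the AP-1 motif TGANTCA and the STAT motif TTCNNNGAA, and capitals mark the run covered by overlapping NF-kB matches. The Ptx3 window lies at chr3:66219637-66219936 on the plus strand and the Cr2 window at chr1:195176670-195176969 on the minus strand.
Ptx3: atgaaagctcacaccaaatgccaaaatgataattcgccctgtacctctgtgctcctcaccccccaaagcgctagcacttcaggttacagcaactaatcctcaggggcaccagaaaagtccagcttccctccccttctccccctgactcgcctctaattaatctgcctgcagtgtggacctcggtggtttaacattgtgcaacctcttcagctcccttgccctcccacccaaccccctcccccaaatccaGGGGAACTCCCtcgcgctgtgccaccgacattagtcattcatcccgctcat
Cr2: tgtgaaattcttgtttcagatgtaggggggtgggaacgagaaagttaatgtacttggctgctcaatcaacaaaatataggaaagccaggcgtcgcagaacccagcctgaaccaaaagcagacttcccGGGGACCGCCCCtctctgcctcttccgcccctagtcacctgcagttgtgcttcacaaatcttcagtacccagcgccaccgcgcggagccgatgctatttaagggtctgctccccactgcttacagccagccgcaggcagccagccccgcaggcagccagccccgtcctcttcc
The NF-kB letters occurred in 50.8% of the 32851 promoters of the table, the AP-1 letters in 7.81% and the STAT letters in 8.3%, so the matches in Ptx3 and Cr2 are of a kind that about every other promoter holds. Neither window held the AP-1 or the STAT letters. The C3ar1 window held an AP-1 match, the C8a window a STAT match, and the Hc and C3ar1 windows an NF-kB match.

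Of the 10 assays, 8 gave values and 2 never did. Hc, which encodes complement C5, and C8a, which encodes the alpha chain of C8 in the membrane pore, stood at Ct 40 in all 20 samples (assays Hc_Mm00439275_m1 and C8a_Mm00521625_m1). On the whole panel 26 of 648 assays never gave a value. A transcript below the reach of the assay cannot be told apart from an absent one or from an assay that did not work. The other terminal-pathway genes on the panel were mixed: C9, the pore-forming subunit, gave a value in 4 of 20 samples and C8b in 3, whereas C6 and C8g gave one in all 20.

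**Figure D1:**
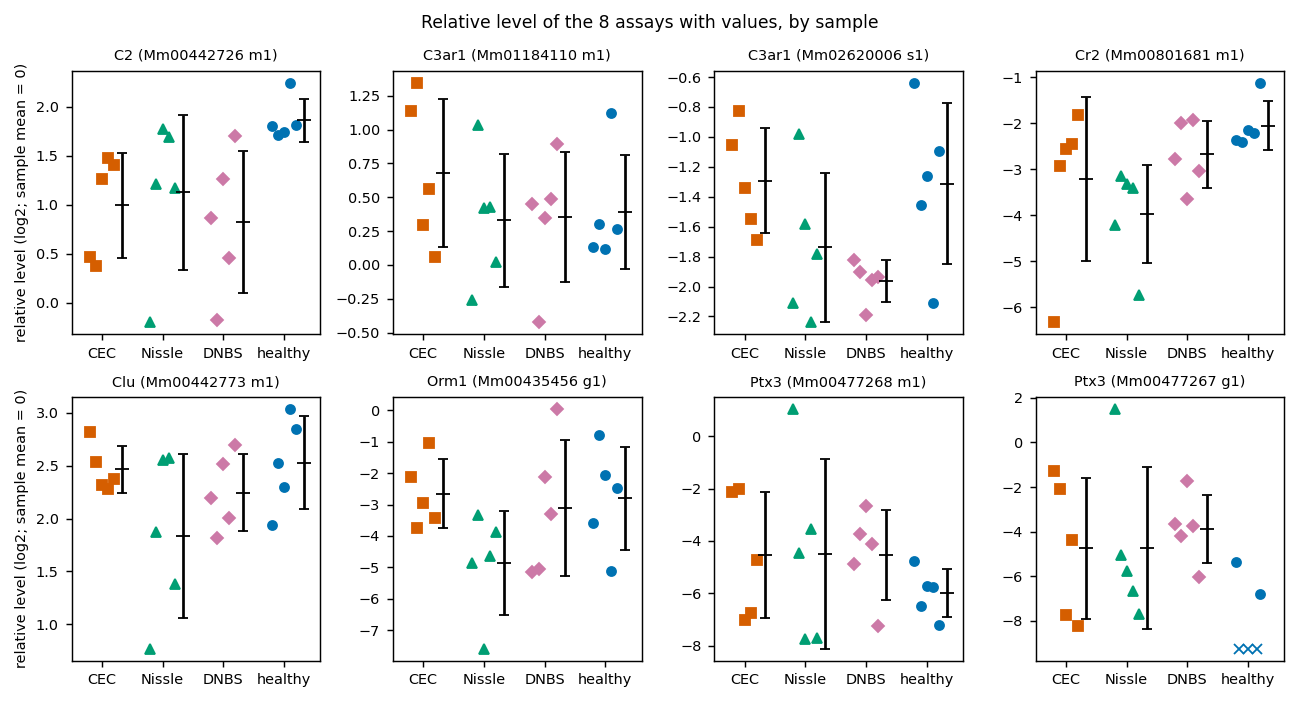
Relative level (log2, y axis, 0 at each sample's mean) of the 8 assays with values in each sample, for the CEC, Nissle, DNBS and healthy groups. Points are samples, bars are mean ± SD (n = 5), and crosses at the bottom mark 3 healthy samples without amplification in the second Ptx3 assay, whose healthy group has no bar. For C2 the 5 healthy samples sit above every CEC and DNBS sample (DNBS 5 at 1.70 and healthy 3 at 1.71 are closest), and for Cr2 the 5 Nissle samples sit below every healthy one.

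C2 encodes the protease component of the classical and lectin pathway C3 convertase and was measured with assay C2_Mm00442726_m1. Its relative level was 0.46, 0.37, 1.26, 1.48 and 1.40 in CEC 1, 3, 5, 7 and 8, and -0.20, 1.21, 1.77, 1.69 and 1.17 in Nissle 1 to 5. It was 0.87, -0.18, 1.26, 0.45 and 1.70 in DNBS 1 to 5, against 1.80, 1.71, 1.74, 2.25 and 1.81 in healthy 1b, 3, 4, 5 and 6. Every CEC and DNBS value was under the lowest healthy value, though DNBS 5 (1.70) nearly reached healthy 3 (1.71), and 4 of the 5 Nissle values were under it too. In raw cycles C2 lay between 21.8 and 23.14 in CEC, 21.44 and 22.8 in Nissle, 22.08 and 22.98 in DNBS and 21.22 and 22.12 in healthy samples, so the raw values of DNBS and healthy samples overlapped slightly.

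C2 averaged 0.82 ± 0.72 in DNBS and 1.86 ± 0.22 in healthy samples (SD, n = 5 each), a log2 difference of -1.04 (SE 0.37), or 2.05-fold lower. It did not pass the threshold (limma, unadjusted p = 0.011, adjusted p = 0.158). The CEC mean of 0.996 ± 0.54 gave a log2 difference of -0.86 from the healthy controls (limma, unadjusted p = 0.0304, adjusted p = 0.803). The Nissle mean of 1.13 ± 0.79 gave -0.73 (limma, adjusted p = 0.4997), and -1.36 without Nissle 3, 4 and 5 (limma, adjusted p = 0.153). Groups without overlap made up 4.75% of the 569 tested assays in DNBS against healthy samples and 0.879% in CEC against healthy samples. With samples weighted by their agreement with their group (limma's array weights), C2 fell in DNBS samples by 0.95 on the log2 scale and passed (limma, adjusted p = 0.0224), while the same weights raised the number of called assays to 90 of 569. Across 35 alternatives the DNBS minus healthy difference of C2 stayed between -1.26 and -0.76 with adjusted p between 0.0224 and 0.652.

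Neutrophil markers differed among the same samples. The mean relative level of 8 assays for 7 neutrophil genes (S100a8, S100a9, Ltf, Camp, Ncf1, Fpr1 and Il8rb) lay between -2.82 and 0.45 in CEC, -2.43 and 2.66 in Nissle, -2.25 and 0.79 in DNBS and -3.30 and -1.71 in healthy samples. All 8 assays were higher in DNBS than in healthy samples in their means, none past the threshold. Across the 20 samples the C2 level had a Pearson r of -0.87 and a Spearman rho of -0.72 with that mean, and r was -0.78 without DNBS 2 and Nissle 1, the samples farthest from the median of the neutrophil mean. After the group means were taken out, r was -0.85. Other marker means gave similar values, so the relation was not particular to neutrophil markers. The r of C2 was -0.79 with 8 macrophage, monocyte and dendritic cell assays, -0.75 with 8 acute-phase assays and -0.75 with Selp, a gene of endothelium. It was 0.66 with 3 T cell assays, but -0.20 with 3 B cell and follicle assays and 0.16 with 3 epithelial assays. The levels share 1 scaling value per sample, and the part of cell composition in the C2 values was not tested. The 2 genes most like C2 on the panel were Ltbp4, which encodes a binding protein of latent TGF-beta, with r = 0.94 over 20 samples, and Il22ra2, the soluble decoy receptor of interleukin 22, with r = 0.88.

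C3ar1, the receptor for the C3a fragment, was measured with an exon-junction assay, C3ar1_Mm01184110_m1, and with C3ar1_Mm02620006_s1, an assay that lies within a single exon. With the exon-junction assay its relative level was 1.14, 1.35, 0.30, 0.56 and 0.06 in CEC 1, 3, 5, 7 and 8, and -0.26, 1.04, 0.42, 0.43 and 0.02 in Nissle 1 to 5. It was 0.45, -0.43, 0.35, 0.49 and 0.89 in DNBS 1 to 5, against 0.14, 0.30, 0.12, 1.13 and 0.26 in healthy 1b, 3, 4, 5 and 6. The 4 groups overlapped, with the highest values in CEC 1, CEC 3 and healthy 5. The log2 difference from the healthy controls was 0.29 for CEC (95% interval -0.37 to 0.95), -0.06 for Nissle (-0.72 to 0.60) and -0.04 for DNBS (-0.70 to 0.62). The Nissle difference was -0.0078 without Nissle 3, 4 and 5.

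With the single-exon assay C3ar1 lay between -1.69 and -0.83 in CEC, -2.24 and -0.98 in Nissle, -2.19 and -1.82 in DNBS and -2.11 and -0.64 in healthy samples. The DNBS samples were close together and below all 5 CEC samples, a separation that 3.16% of tested assays showed in CEC against DNBS. The DNBS minus healthy difference was -0.65 (limma, unadjusted p = 0.0477, adjusted p = 0.331) and the CEC minus DNBS difference 0.67 (limma, unadjusted p = 0.0417, adjusted p = 0.455). The Nissle minus healthy difference was -0.43 (limma, adjusted p = 0.575), and -0.24 without Nissle 3, 4 and 5. The 53 single-exon assays of the panel had medians of -0.65 in DNBS minus healthy and 0.64 in CEC minus DNBS samples, so C3ar1 lay close to the median of its assay class in both. Array weights took the DNBS minus healthy difference of this assay to -0.83 (limma, adjusted p = 0.0396), with 0.15 for the exon-junction assay (adjusted p = 0.720). The Ct of the exon-junction assay minus that of the single-exon assay ranged from -3.24 to -0.77 cycles, and the assays had a Pearson r of 0.28 and a Spearman rho of 0.14 over the 20 samples. Assays within an exon can also amplify genomic DNA, and its part in these values was not tested. The single-exon assay had an r of 0.56 with the mean of 3 epithelial assays and 0.16 with that of 8 macrophage assays. All 3 epithelial assays were higher in CEC than in DNBS samples (median 1.16), none past the threshold. The part of cell composition in the C3ar1 values was not tested. The exon-junction assay was most like Mrc1, the macrophage mannose receptor (r = 0.75), and Cmtm3 (r = 0.73), and the single-exon assay most like the single-exon assays of the fractalkine receptor Cx3cr1 (r = 0.69) and of the signalling adaptor Bcl10 (r = 0.67), each over 20 samples.

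Cr2, complement receptor 2 or CD21, lowers the threshold of B cells for antigen coated with C3 fragments. With assay Cr2_Mm00801681_m1 its relative level was -6.33, -2.92, -2.57, -2.45 and -1.81 in CEC 1, 3, 5, 7 and 8, and -4.21, -3.15, -3.33, -3.42 and -5.73 in Nissle 1 to 5. It was -2.78, -1.996, -3.65, -1.92 and -3.03 in DNBS 1 to 5, against -2.37, -2.41, -2.14, -2.22 and -1.12 in healthy 1b, 3, 4, 5 and 6. Every Nissle value was under the lowest healthy value, and CEC 1 had the lowest value of all samples. Cr2 averaged -3.97 ± 1.07 in Nissle and -2.05 ± 0.53 in healthy samples (SD, n = 5 each), a log2 difference of -1.91 (SE 0.68), or 3.77-fold lower. It did not pass the threshold (limma, unadjusted p = 0.0103, adjusted p = 0.488), and 2.99% of the 569 tested assays showed no overlap between Nissle and healthy samples. Without Nissle 3, 4 and 5 the difference was -1.63 (limma, adjusted p = 0.265).

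The difference of Cr2 from the healthy controls was -1.16 in CEC (95% interval -2.58 to 0.25) and -0.39 without CEC 1. It was -0.62 in DNBS (-2.04 to 0.79), and between Nissle and DNBS samples it was -1.29 (-2.70 to 0.12), and -1.01 without Nissle 3, 4 and 5. Of the B cell and follicle markers only Blnk, Cd40 and Ltb were on the panel, and other markers of these cells were not analysed here. The mean relative level of these 3 lay between -0.12 and 0.28 in CEC, -0.16 and 0.56 in Nissle, 0.09 and 0.41 in DNBS and 0.03 and 0.63 in healthy samples. Ltb, which encodes the lymphotoxin beta needed for follicles, had log2 differences from the healthy controls of -0.81 in CEC, -0.76 in Nissle and -0.63 in DNBS, none past the threshold (limma, adjusted p = 0.803, 0.488 and 0.408). Blnk went the other way, with 0.64 in CEC, 0.65 in Nissle and 0.55 in DNBS, and Cd40 was mixed, with -0.24, 0.08 and 0.11. None of these passed either. The number of B cells or follicles sampled could not be read from these 3 genes, and its part in the Cr2 values was not tested. The genes most like Cr2 were Ptpn6, the phosphatase SHP-1 of blood cells (r = 0.73), and Tacr1, the substance P receptor (r = 0.63), over 20 samples.

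Clu encodes clusterin, a secreted chaperone that inhibits the assembly of the terminal complement pore. With assay Clu_Mm00442773_m1 its relative level was 2.82, 2.54, 2.32, 2.28 and 2.38 in CEC 1, 3, 5, 7 and 8, and 0.77, 1.88, 2.56, 2.57 and 1.38 in Nissle 1 to 5. It was 2.20, 1.82, 2.52, 2.003 and 2.70 in DNBS 1 to 5, against 1.94, 2.53, 2.30, 3.04 and 2.85 in healthy 1b, 3, 4, 5 and 6. The groups overlapped, and Nissle 1 and Nissle 5 were the lowest of all samples. The Nissle minus healthy difference was -0.70 (SE 0.31; limma, unadjusted p = 0.0342, adjusted p = 0.488), -0.43 without Nissle 1 and -1.21 without Nissle 3, 4 and 5 (limma, adjusted p = 0.0835). The CEC mean of 2.47 ± 0.22 and the DNBS mean of 2.25 ± 0.36 differed from the healthy mean of 2.53 ± 0.44 by -0.07 (95% interval -0.71 to 0.58) and -0.28 (-0.93 to 0.36). Clu was most like Figf, the lymphangiogenic factor VEGF-D (r = 0.75), and Cd4, the helper T cell co-receptor (r = 0.71), over 20 samples.

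Orm1 encodes orosomucoid or alpha-1-acid glycoprotein, an acute-phase protein of the liver that binds drugs and lipids. With assay Orm1_Mm00435456_g1 its relative level was -2.11, -3.76, -2.96, -1.03 and -3.43 in CEC 1, 3, 5, 7 and 8, and -4.86, -3.32, -7.59, -4.63 and -3.86 in Nissle 1 to 5. It was -5.15, -5.06, -2.13, -3.29 and 0.05 in DNBS 1 to 5, against -3.58, -0.79, -2.05, -5.12 and -2.48 in healthy 1b, 3, 4, 5 and 6. Samples of 1 group lay far apart, with DNBS 1 the lowest and DNBS 5 the highest of the DNBS group, and every group overlapped with the healthy controls. Orm1 averaged -4.85 ± 1.65 in Nissle and -2.80 ± 1.64 in healthy samples (SD, n = 5 each), a log2 difference of -2.05 (SE 0.97; limma, unadjusted p = 0.0476, adjusted p = 0.4997), and -1.30 without Nissle 3, 4 and 5. The CEC minus Nissle difference was 2.19 (SE 0.97; limma, unadjusted p = 0.0351, adjusted p = 0.998), and 1.44 without Nissle 3, 4 and 5 (adjusted p = 0.703). The DNBS minus healthy difference was -0.31 (95% interval -2.34 to 1.71), and leaving out single samples moved it between -1.10 (without DNBS 5) and 0.19 (without DNBS 1). Of the liver markers on the panel, Apcs gave a value in 1 of 20 samples, and Serpina1a, the alpha-1-antitrypsin gene, had log2 differences from the healthy controls of -0.01 in CEC, -0.13 in Nissle and -1.39 in DNBS samples, none past the threshold. Orm1 was most like the procollagen protease gene Bmp1 (r = 0.77) and the leukotriene synthesis gene Alox5 (r = 0.56), over 20 samples.

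Ptx3 encodes pentraxin 3, a pattern recognition protein that binds C1q. With assay Ptx3_Mm00477268_m1 its relative level was -2.14, -2.01, -7.00, -6.74 and -4.72 in CEC 1, 3, 5, 7 and 8, and 1.04, -4.45, -7.76, -3.56 and -7.72 in Nissle 1 to 5. It was -4.88, -3.75, -2.66, -4.11 and -7.26 in DNBS 1 to 5, against -4.76, -6.47, -5.71, -5.76 and -7.22 in healthy 1b, 3, 4, 5 and 6. In each group given DNBS, 3 of 5 samples had values above all healthy samples (CEC 1, 3 and 8, Nissle 1, 2 and 4, and DNBS 2, 3 and 4), and the other values lay among or below the healthy ones. Nissle 1, with a raw Ct of 21.56 cycles, was the highest sample.

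The means of this Ptx3 assay were -4.52 ± 2.40 in CEC, -4.49 ± 3.63 in Nissle, -4.53 ± 1.72 in DNBS and -5.99 ± 0.92 in healthy samples (SD, n = 5 each). The log2 differences from the healthy controls were 1.46, 1.50 and 1.45, with an SE of 1.37 each, and none passed (limma, adjusted p = 0.821, 0.662 and 0.675). The Nissle difference was 0.11 without Nissle 1 and 4.28 without Nissle 3, 4 and 5 (limma, adjusted p = 0.154). The latter rests on Nissle 1 (1.04) and Nissle 2 (-4.45) alone. The 95% intervals ran from -1.39 to 4.31 in CEC, -1.35 to 4.34 in Nissle and -1.40 to 4.30 in DNBS samples. With runs of 36 consecutive assays of the table centred, the differences were 0.84 in CEC, 1.05 in Nissle and 1.74 in DNBS samples, and with the sample number as a block the DNBS difference was 0.58.

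The second assay, Ptx3_Mm00477267_g1, gave a value in all 5 CEC, all 5 Nissle and all 5 DNBS samples and in 2 of 5 healthy samples. Its relative level was -1.30, -2.08, -7.74, -4.39 and -8.25 in CEC 1, 3, 5, 7 and 8, and 1.51, -5.03, -5.78, -6.65 and -7.71 in Nissle 1 to 5. It was -3.67, -4.22, -1.74, -3.75 and -6.02 in DNBS 1 to 5, against -5.35 and -6.82 in healthy 3 and 4, with no amplification in healthy 1b, 5 and 6. Detection did not differ past the threshold (Fisher's exact test, unadjusted p = 0.167 for each DNBS-treated group against the healthy controls; adjusted p = 0.931 for DNBS and 1 for the others). No detection test of any assay passed in the 6 comparisons, 0% of the 67 assays that could be tested in DNBS against healthy samples, 0% of 63 in CEC and 0% of 63 in Nissle against healthy samples, 0% of 58 in CEC and 0% of 58 in Nissle against DNBS samples and 0% of 60 in CEC against Nissle samples, with 2, 2 and 3 assays at an unadjusted p under 0.05 in the comparisons with the healthy controls. For 5 against 5 samples Fisher's exact test cannot give a p under 0.00794, so 1 assay alone could not pass after adjustment over so many assays. The absence of calls therefore says little about detection. With samples without amplification ranked lowest, an exact two-sided permutation test of ranks gave p = 0.0159 for DNBS against healthy samples and 0.0952 for both CEC and Nissle, where the smallest p possible was 0.00794. The same exact permutation test on the first assay gave p = 0.222 for DNBS, 0.421 for CEC and 0.690 for Nissle against healthy samples. Over the values present, with at least 2 in each group, the second assay differed from the healthy controls by 1.33 in CEC, 1.35 in Nissle and 2.20 in DNBS samples (limma, adjusted p = 0.876, 0.834 and 0.682). The rank tests (2 assays in 6 comparisons) were chosen after the data had been seen and were not adjusted.

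**Figure D2:**
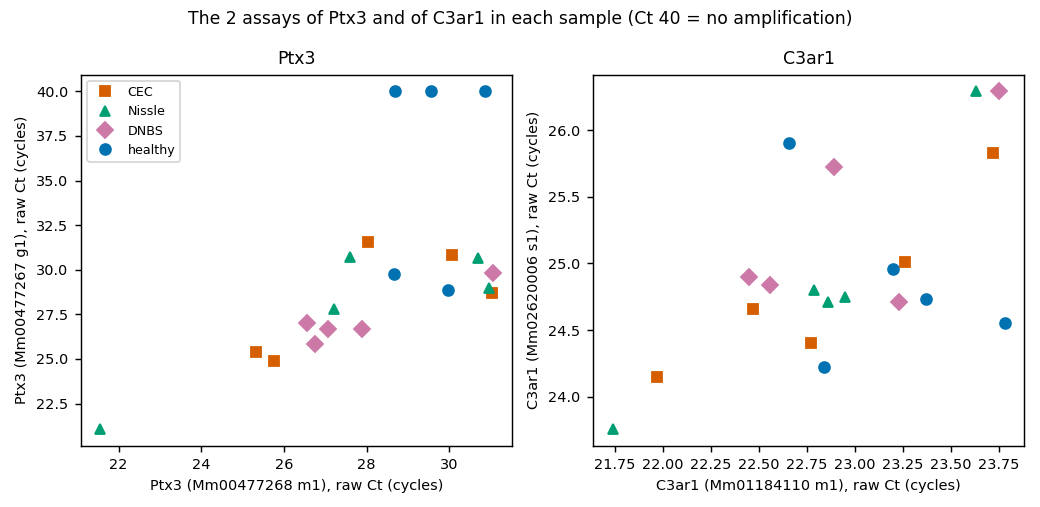
Raw Ct (cycles) of the 2 Ptx3 assays (left) and the 2 C3ar1 assays (right), each point 1 sample of the CEC, Nissle, DNBS or healthy group. The relative levels of the Ptx3 assays have an r of 0.81 and a rho of 0.69 over 17 samples, and 3 healthy samples stand at Ct 40 in the second assay. Those of the C3ar1 assays have an r of 0.28.

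The Ptx3 assays had a Pearson r of 0.81 and a Spearman rho of 0.69 over the 17 samples with both values. Their Ct difference, first minus second, ranged from -3.53 to 2.35 cycles with a median of 0.36. Ptx3 was most like Lilrb3, an inhibitory receptor of myeloid cells (r = 0.88), and the S100a8 assay S100a8_Mm01220132_g1 (r = 0.83), a calprotectin subunit abundant in neutrophils, over 20 samples. Its r with the mean of the 8 neutrophil assays was 0.86 (rho 0.75), 0.79 without DNBS 2 and Nissle 1 and 0.89 after the group means were taken out. The samples with the highest Ptx3, Nissle 1, CEC 3 and CEC 1, had neutrophil means of 2.66, 0.45 and 0.02, and the healthy samples had -3.30 to -1.71. Selp, the P-selectin gene of endothelium, differed from the healthy controls by 1.07 in CEC, 2.02 in Nissle and 1.59 in DNBS samples, none past the threshold (limma, adjusted p = 0.803, 0.458 and 0.158). Ptx3 also had an r of 0.81 with Selp, 0.77 with the mean of 8 other acute-phase assays and 0.72 with that of 8 macrophage assays. It was 0.20 with the 3 B cell and follicle assays and -0.21 with the 3 epithelial assays. The part of neutrophils or endothelium in the Ptx3 values was not tested.

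**Figure D3:**
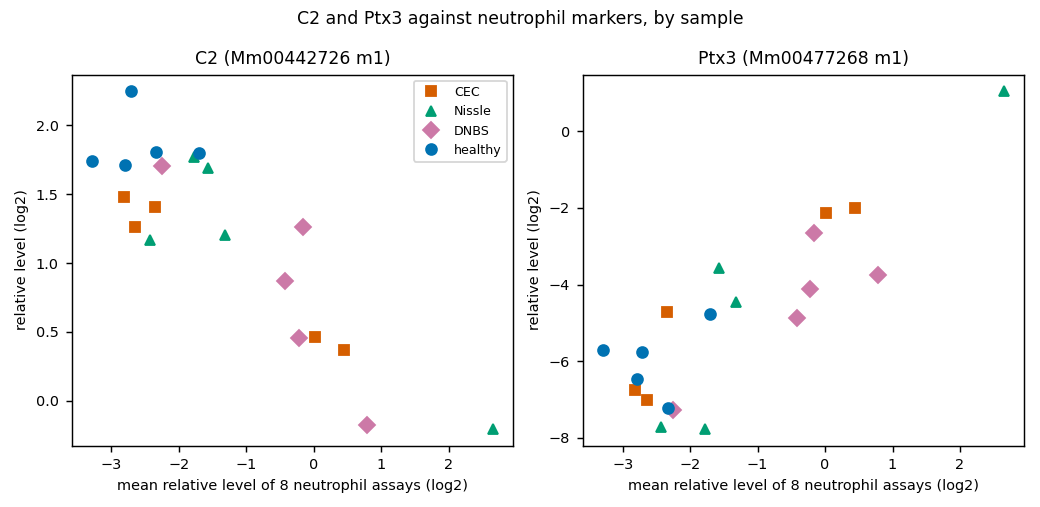
Relative level (log2) of C2 (left) and of the first Ptx3 assay (right) against the mean relative level of 8 neutrophil assays, each point 1 sample of the CEC, Nissle, DNBS or healthy group. C2 values are lower (r = -0.87) and Ptx3 values higher (r = 0.86) in samples with more neutrophil marker signal, and Nissle 1 lies at one end of both plots.

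Set against each other, C2 and Ptx3 (first assay) were negatively correlated, with an r of -0.70 and a rho of -0.63 over 20 samples, -0.59 without DNBS 2 and Nissle 1 and -0.69 after the group means were taken out. This was the member pair with the highest absolute r among the 20 pairs of different genes. The next were C3ar1 (exon-junction assay) with Clu, at 0.59 and a rho of 0.52, and C2 with Clu, at 0.58 and a rho of 0.54, the last of which was 0.28 without DNBS 2 and Nissle 1. All pairs share the scaling value of each sample.

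**Figure D4:**
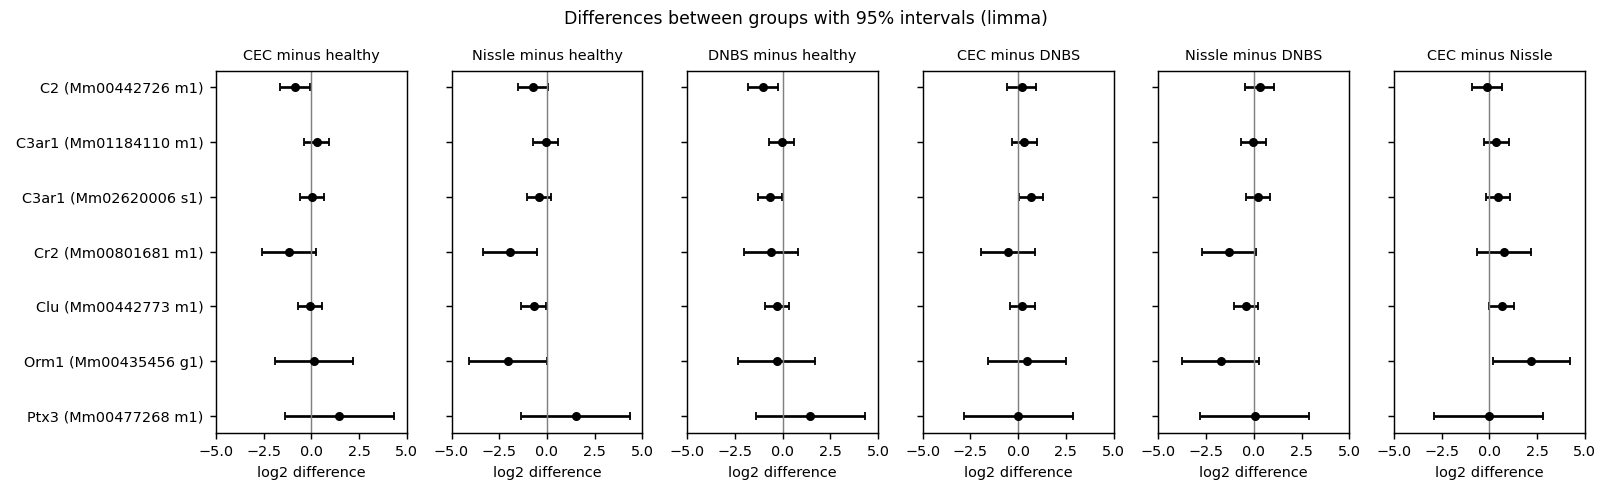
Log2 difference (x axis, first group minus second) with its 95% interval from limma for the 7 tested assays, in the 6 comparisons of 5 samples a group. The largest differences are those of Orm1 in CEC minus Nissle (2.19) and Nissle minus healthy samples (-2.05), and the widest intervals those of Ptx3 and Orm1.

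Across the comparisons, 7 member assays entered the fit, and none passed an adjusted p of 0.05 (limma, over 569 assays). The counts below are of assays, and C3ar1 enters with 2 of them. In CEC against healthy samples 4 member assays had a higher and 3 a lower mean. The median difference was 0.02 against -0.08 over all assays, and 1 member assay had an unadjusted p under 0.05 in limma. In Nissle against healthy samples 1 was higher and 6 lower, with a median of -0.70 against -0.10. There 3 member assays had an unadjusted p under 0.05. In DNBS against healthy samples 1 was higher and 6 lower, with a median of -0.31 against -0.07, and 2 member assays had such a p. The background was low in each case: 0.176% of tested assays, 1 of 569, passed in CEC, 0.176% in Nissle and 0.176% in DNBS against healthy samples, while 22, 54 and 83 assays had an unadjusted p under 0.05. A fit blocked on the sample number called 2 assays in DNBS against healthy samples, neither of them a member. These 3 comparisons share the healthy samples.

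The oral agents were set against DNBS with oral PBS to see whether either moved these genes. No assay of the panel passed in CEC against DNBS (0%), Nissle against DNBS (0%) or CEC against Nissle samples (0%), with 61, 24 and 8 assays at an unadjusted p under 0.05 in limma. Of the 7 member assays, 6 had a higher mean in CEC than in DNBS samples, both C3ar1 assays among them. The median of the 7 was 0.22 against -0.02 over all assays. In Nissle against DNBS samples 3 had a higher mean, with a median of -0.02 against -0.06. In CEC against Nissle samples 5 member assays were higher and 2 lower, with a median of 0.45 against 0.06. C2 differed by 0.17 in CEC minus DNBS (95% interval -0.60 to 0.95) and by 0.31 in Nissle minus DNBS (-0.47 to 1.08), which turned to -0.32 without Nissle 3, 4 and 5. Ptx3 (first assay) differed by 0.01 (-2.84 to 2.86) and 0.05 (-2.80 to 2.89), intervals that include differences of several cycles either way. Without Nissle 3, 4 and 5 the Nissle minus DNBS difference of Ptx3 was 2.83, and with table runs centred the differences were -0.90 in CEC minus DNBS and -0.69 in Nissle minus DNBS. Orm1 differed by 0.46 in CEC minus DNBS (-1.57 to 2.48) and by -1.74 in Nissle minus DNBS (-3.76 to 0.29), the second being -0.98 without Nissle 3, 4 and 5. Clu differed by 0.22 in CEC minus DNBS (-0.42 to 0.86) and by -0.41 in Nissle minus DNBS (-1.06 to 0.23), the second being -0.93 without Nissle 3, 4 and 5. The C3ar1 differences in Nissle minus DNBS were -0.02 with the exon-junction and 0.22 with the single-exon assay, and 0.03 and 0.41 without these 3 samples. In CEC minus Nissle samples C2 differed by -0.13, Cr2 by 0.75, Clu by 0.63 and Ptx3 (first assay) by -0.04, and these were 0.50, 0.47, 1.15 and -2.82 without Nissle 3, 4 and 5. The C3ar1 differences in CEC minus Nissle were 0.35 and 0.45, and 0.30 and 0.26 without them. No difference in this paragraph passed with or without the 3 samples.

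The rest of the complement system on the panel was 23 further genes with 1 assay each, of which 19 were tested and none passed in any comparison. Their median difference was 0.16 in CEC, 0.13 in Nissle and -0.02 in DNBS against healthy samples, with 12, 12 and 8 of 19 higher. In CEC against healthy samples Itgam, the alpha chain of complement receptor 3, differed by 0.82 (SE 0.43) and Cfi, the protease that inactivates C3b, by 0.68 (limma, adjusted p = 0.803 for each). In Nissle samples Cfi differed by 0.60 and Cd55, a membrane inhibitor of convertases, by -0.49. In DNBS samples Mbl2, a lectin pathway recognition protein, differed by -1.89 (SE 1.30), Cfi by 0.48 and C1qa, a chain of the C1q recognition protein, by -0.25. Itgam also stands in the macrophage list, whose 8 assays had median differences of 0.81 in CEC, 0.54 in Nissle and 0.52 in DNBS against healthy samples, none of them past the threshold.

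The other acute-phase proteins were 12 genes with 1 assay each, 8 of them tested and none past the threshold. Their median difference was 0.51 in CEC, 0.75 in Nissle and 1.09 in DNBS against healthy samples, with 5, 7 and 7 of 8 higher. In DNBS samples Ltf, the iron-binding lactoferrin of neutrophil granules, had a mean of 0.15 against -1.68 in healthy samples, a log2 difference of 1.83 (SE 0.57; limma, adjusted p = 0.122). Lbp, the carrier of bacterial lipopolysaccharide, differed by 1.19 (SE 0.40; adjusted p = 0.158) and the serum amyloid gene Saa1 by 1.29 (SE 0.65; adjusted p = 0.380). Saa1 differed by 1.38 in CEC and 0.90 in Nissle samples. Ltf is also one of the neutrophil markers, and Cd14 one of the macrophage markers. The 4 genes not tested had few values: Crp and Apcs gave one in 1 of 20 samples each, Kng1 in 2 and A2m in 9. The 8 tested genes, Serpina1a and F2 among them, gave a value in all 20 samples.

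**Figure D5:**
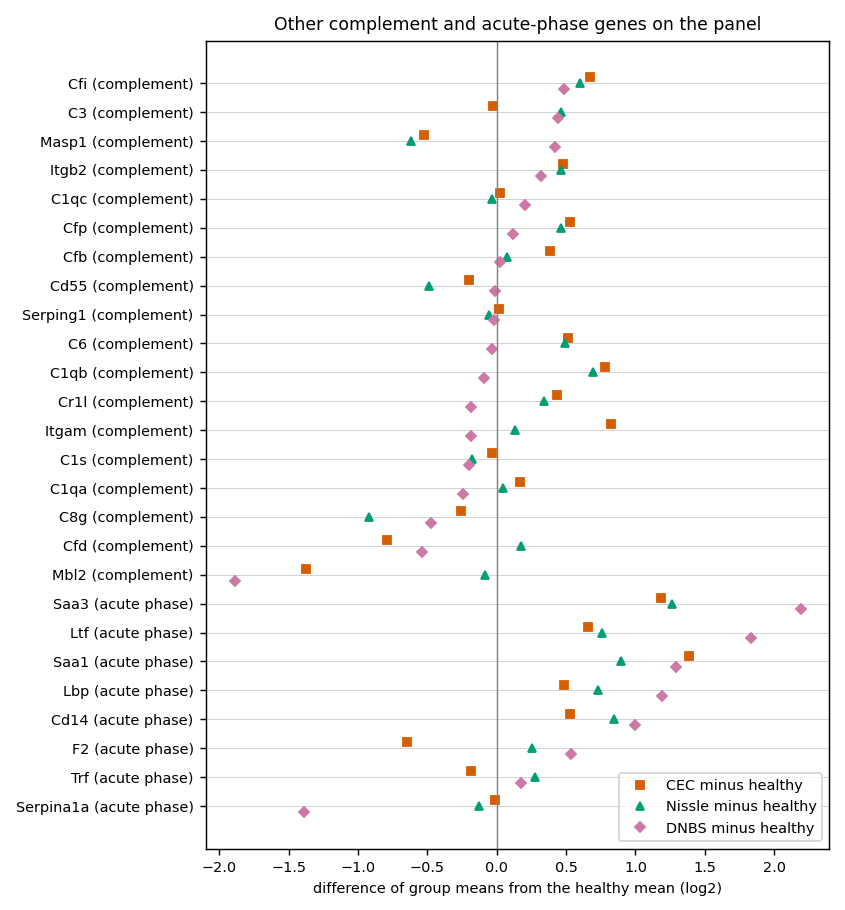
Difference of each group mean from the healthy mean (log2, x axis) for 18 of the 19 complement genes and the 8 acute-phase genes tested outside the 8 members, for the CEC, Nissle and DNBS groups. Most complement genes sit near 0, whereas 7 of the 8 acute-phase genes are above 0 in DNBS samples, none past the threshold.

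Of the cytokines and signalling genes that induce acute-phase proteins, 19 assays were tested and none passed. In DNBS against healthy samples 12 were higher and 7 lower, with a median of 0.20, and the smallest p-values were those of the exon-junction assay Il6_Mm00446190_m1 at 4.62 (SE 1.22), of the transcription factor gene Cebpb at 1.28 and of the gp130 cytokine oncostatin M, Osm, at 1.80 (limma, adjusted p = 0.122, 0.298 and 0.298). That Il6 assay differed by 2.96 in Nissle against healthy samples and by -2.85 in CEC against DNBS samples (limma, adjusted p = 0.488 and 0.444). Another tested Il6 assay, Il6_Mm01210733_m1, had the opposite direction against the healthy controls, but it too was lower in CEC than in DNBS samples. Its 18 values had an SD of 5.9. Its group means were -5.53 in CEC, -4.92 in Nissle, -2.59 in DNBS and 1.46 in healthy samples. Its difference was -6.99 (SE 3.75, limma, adjusted p = 0.803) in CEC against healthy samples. The Il6 assay Il6_Mm01210732_g1 gave a value in 15 of 20 samples and was not tested. Its means over the values present were -4.33 in CEC, -3.37 in Nissle, -1.18 in DNBS and -5.68 in healthy samples. These lay in the direction of Il6_Mm00446190_m1. Tnf gave no value in any sample.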

How the data were processed

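The deposited table holds raw Ct values in cycles, not normalized, per the file headers. Its first line calls it a truncated example of the matrix, so the panel may have held further assays. Total RNA came from a mirVana isolation and cDNA was run on TaqMan OpenArray plates, per the labels' protocols. The sources used here do not say whether a value averages several wells or how thresholds were set. A Ct of 40 (or an empty cell, of which there was 1) was taken as no amplification and left missing.

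Relative levels were fitted with limma 3.58.1 in R 4.3.3, as 4 group means over the 20 samples, with empirical Bayes moderation and a trend. P-values were two-sided and adjusted by Benjamini-Hochberg (threshold 0.05) over the 569 assays with at least 3 values in each group. The fit without Nissle 3, 4 and 5 required at least 2 values in each group. Whether an assay amplified was compared between groups by Fisher's exact test. The fit was also run on simulated data with independent noise for each assay. These lack the joint shifts of consecutive assays seen in the deposited values, so they cannot show how such shifts affect the fit. The number of samples (5 a group) limits the precision.

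The members, lists and alternatives were chosen with earlier results of these data known. The named genes were all members, the 2 genes most like each tested member by Pearson r, and up to 3 genes per list and comparison with the smallest p, of which 1 complement gene is not reported here. The centring of table sections, the rank tests of Ptx3, the block on the DNBS and healthy groups alone and the setting of C2 and Ptx3 against the neutrophil mean were added after the data had been seen.

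Sample numbers are shared between groups. In DNBS and healthy samples the deviations of same-numbered samples from their group means had correlations of 0.18, 0.14 and 0.49 for the 3 shared numbers. In Nissle and healthy samples they were -0.16, -0.40 and -0.15, and in the remaining comparisons they lay between -0.36 and 0.44. Same-numbered samples thus did not deviate together throughout. The labels do not state that a shared number marks paired samples.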

Additional observations from a re-analysis of the deposited data

Results flagged for a closer look

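Within groups of 4 or 5 samples, a sample was picked out where its gap to the nearest other sample was a large part of the group's range (Dixon's 95% critical value, 0.71 for 5 samples). This held in 4 of 31 groups tested, and chance alone picks out about 1 group in 20. The relative level of Cr2 in CEC 1 was -6.33, against -2.92 in CEC 3, the nearest CEC sample. Among the healthy samples, Cr2 was -1.12 in healthy 6, against -2.14 in healthy 4. C2 was 2.25 in healthy 5, against 1.81 in healthy 6. The exon-junction assay of C3ar1 was 1.13 in healthy 5, against 0.30 in healthy 3.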

How the results depend on the processing

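No member passed the threshold in any of the 6 comparisons under any alternative for scaling, missing values, filters, moderation, samples left out or section centring except array weights, under which 2 member assays (C2 and the single-exon assay of C3ar1) passed in DNBS against healthy samples. The number of called assays of the whole panel ranged from 0 to 90 in DNBS against healthy samples (90 with array weights, 1 as reported), from 0 to 2 in CEC and from 0 to 2 in Nissle against healthy samples (1 as reported in each), and from 0 to 21 in CEC against DNBS samples (21 with array weights, 0 as reported). It was 0 throughout in Nissle against DNBS and in CEC against Nissle samples. With the sample number as a replicate block, 0 members passed in each comparison, C2 differed by -0.77 in DNBS minus healthy samples (limma, adjusted p = 0.652), and with the block on these groups alone by -0.76 (adjusted p = 0.265), where 2 assays of the panel passed in either fit. The block changed no call of a member. Without Nissle 3, 4 and 5 no assay of the panel passed in Nissle against healthy samples. Levels shifted along the deposited table: runs of 36 consecutive assays deviated together in a sample, by -1.71 to 1.12 in the run that holds the first Ptx3 assay and by -0.34 to 0.69 in that of C2. With these runs centred, C2 differed by -0.96 and Ptx3 (first assay) by 1.74 in DNBS minus healthy samples (limma, adjusted p = 0.127 and 0.513). The same centring took Ptx3 to 0.84 in CEC and 1.05 in Nissle minus healthy samples and to -0.90 in CEC minus DNBS samples, and the replicate block took it to 0.58 in DNBS minus healthy samples.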
